A study of Rattus norvegicus with 23 samples.

Results

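Genes of the vessel wall and of the response to low oxygen were followed through a rat nerve repair experiment: Vegfa (ENSRNOG00000019598), Kdr (ENSRNOG00000046829), Vwf (ENSRNOG00000019689), Nos3 (ENSRNOG00000009348) and Hif1a (ENSRNOG00000008292). They were chosen by identifier, and all 5 were among the 32545 gene identifiers of the count table. All 5 passed the filter on low counts, both among the 15954 genes tested over all 23 libraries and among the 15036 tested over the 12 libraries of repaired nerves. The symbols come with the choice of genes, since the count table itself holds identifiers only.

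The libraries were made from poly-T selected RNA of wild-type adult female rats. In the repaired animals the median nerve was cut, with a gap of 8 mm, and then repaired. Repaired nerves of the MIV series (repair after cut injury and MIV) were collected at day 3 (n = 3) and day 7 (n = 3). In the series design the repair is a 10 mm muscle-in-vein graft, a length of vein filled with skeletal muscle that serves as a conduit. Repaired nerves of the EV series, labelled as repaired after the cut with no mention of MIV, were collected at day 3 (n = 3) and day 7 (n = 3). Untreated tissue came from healthy median nerve (n = 5), healthy epigastric vein (n = 3) and healthy adductor muscle (n = 3). The labels give neither strain nor animal numbers, so p-values measure only the spread between these libraries, which may be partly technical.

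New vessels grow when endothelial cells, which line the inside of vessels, respond to the secreted factor VEGF-A. Vegfa encodes that factor, and Kdr encodes VEGFR2, its main signalling receptor on endothelial cells. Vwf encodes von Willebrand factor, a clotting glycoprotein stored by endothelial cells and platelets, and Nos3 encodes the endothelial nitric oxide synthase, which relaxes the vessel wall. Hif1a encodes the oxygen-regulated subunit of the transcription factor HIF-1, which activates Vegfa and other genes when oxygen is short. Its protein is controlled mainly through degradation, so the transcript level is not a reading of HIF-1 activity. In an injured nerve, vessels that grow into the gap are known to guide migrating Schwann cells.

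Library totals ran from 12504035 to 17314324 counts, and levels are given in CPM, the count scaled to library size, with TMM scaling factors. These factors were 0.410 to 0.421 in healthy muscle and 1.03 to 1.24 in every other library. The low factors raise all CPM of healthy muscle relative to the count divided by the library total. Levels in healthy muscle, folds against it and its place in an order of group means therefore depend on this scaling. CPM values compare 1 gene between libraries, not genes with each other, since gene length is not divided out. The lowest count of any of the 5 genes in any library was 113, so counting error is small beside the spread between libraries. Genes enriched in healthy muscle over both other healthy tissues (2842 genes, Vegfa among them) took 17.9% to 37.4% of the counts in MIV day 7 libraries, against 16.1% to 17.1% in EV day 7 libraries. They took 18.3% to 21.7% in MIV day 3 and 17.7% to 19.9% in EV day 3. In healthy nerve they took 14.0% to 17.1%, in healthy vein 15.8% to 17.3% and in healthy muscle 79.9% to 80.6%. The part of this share in the Vegfa level was not tested. Genes enriched in healthy vein (1127 genes, with Vwf and Nos3 among them) took 5.07% to 7.86% in MIV day 7 and 9.21% to 9.79% in EV day 7. Both groups of genes were defined on these libraries. In these bulk samples, fewer cells of a type and less RNA per cell cannot be told apart.

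Against healthy nerve, Nos3 and Hif1a were higher in all 4 groups of repaired nerves, Vegfa was higher at day 3 alone in both series, and Vwf passed in no group. By the quasi-likelihood test of edgeR (p adjusted over all genes after Benjamini and Hochberg, threshold 0.05), 3 of 5 passed as higher in MIV day 3, where 30.9% of all tested genes did. In MIV day 7 nerves 2 of 5 passed as higher, where 29.2% of all genes did. In EV day 3 nerves 3 of 5 passed, where 30% of all genes did, and in EV day 7 nerves 3 of 5, where 24.1% did. None of the 5 passed as lower in any of these (nor at an unadjusted p under 0.05, nor with DESeq2), where 30.6%, 25.4%, 30.7% and 24% of all genes did in the same order of groups. The median log2 fold change of the 5 genes was 1.40 in MIV day 3, 0.50 in MIV day 7, 1.99 in EV day 3 and 1.20 in EV day 7, against 0.01, 0.05, -0.01 and 0.00 over all genes. Every library of the group lay above every healthy nerve library for 30.6% of all genes in MIV day 3 and 23.1% in MIV day 7. For EV day 3 this share was 29.1%, and for EV day 7 it was 26.1%. The 4 comparisons share the 5 healthy nerve libraries and are not independent of each other.

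Against healthy vein, 4 of 5 passed in MIV day 3 (Vegfa and Hif1a higher, Vwf and Nos3 lower), where 53.9% of all genes did in either direction, and 2 of 5 in MIV day 7 (Vwf and Nos3 lower), where 45.9% did. In EV day 3, 3 of 5 passed (Vegfa and Hif1a higher, Vwf lower), where 52.3% did, and in EV day 7, 1 of 5 (Vwf lower), where 28.5% did. Against healthy muscle, 3 of 5 passed in MIV day 3 (Nos3 and Hif1a higher, Vegfa lower), where 66.4% of all genes did, and 3 of 5 in MIV day 7 (Vwf and Hif1a higher, Vegfa lower), where 66.1% did. Between the healthy tissues, 3 of 5 passed for vein against nerve (40.3% of all genes), 3 of 5 for muscle against nerve (67.3%) and 4 of 5 for muscle against vein (64.2%). The shares of the 5 genes thus lay near those of all genes in several of these comparisons, and the values of each gene carry the description. Libraries without overlap, in either direction, were common too. Against vein, 64.4% of all genes had none in MIV day 3, 50.2% in MIV day 7, 62.3% in EV day 3 and 49.5% in EV day 7. Against muscle this share was 69.4% in MIV day 3 and 64.5% in MIV day 7.

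**Figure D1:**
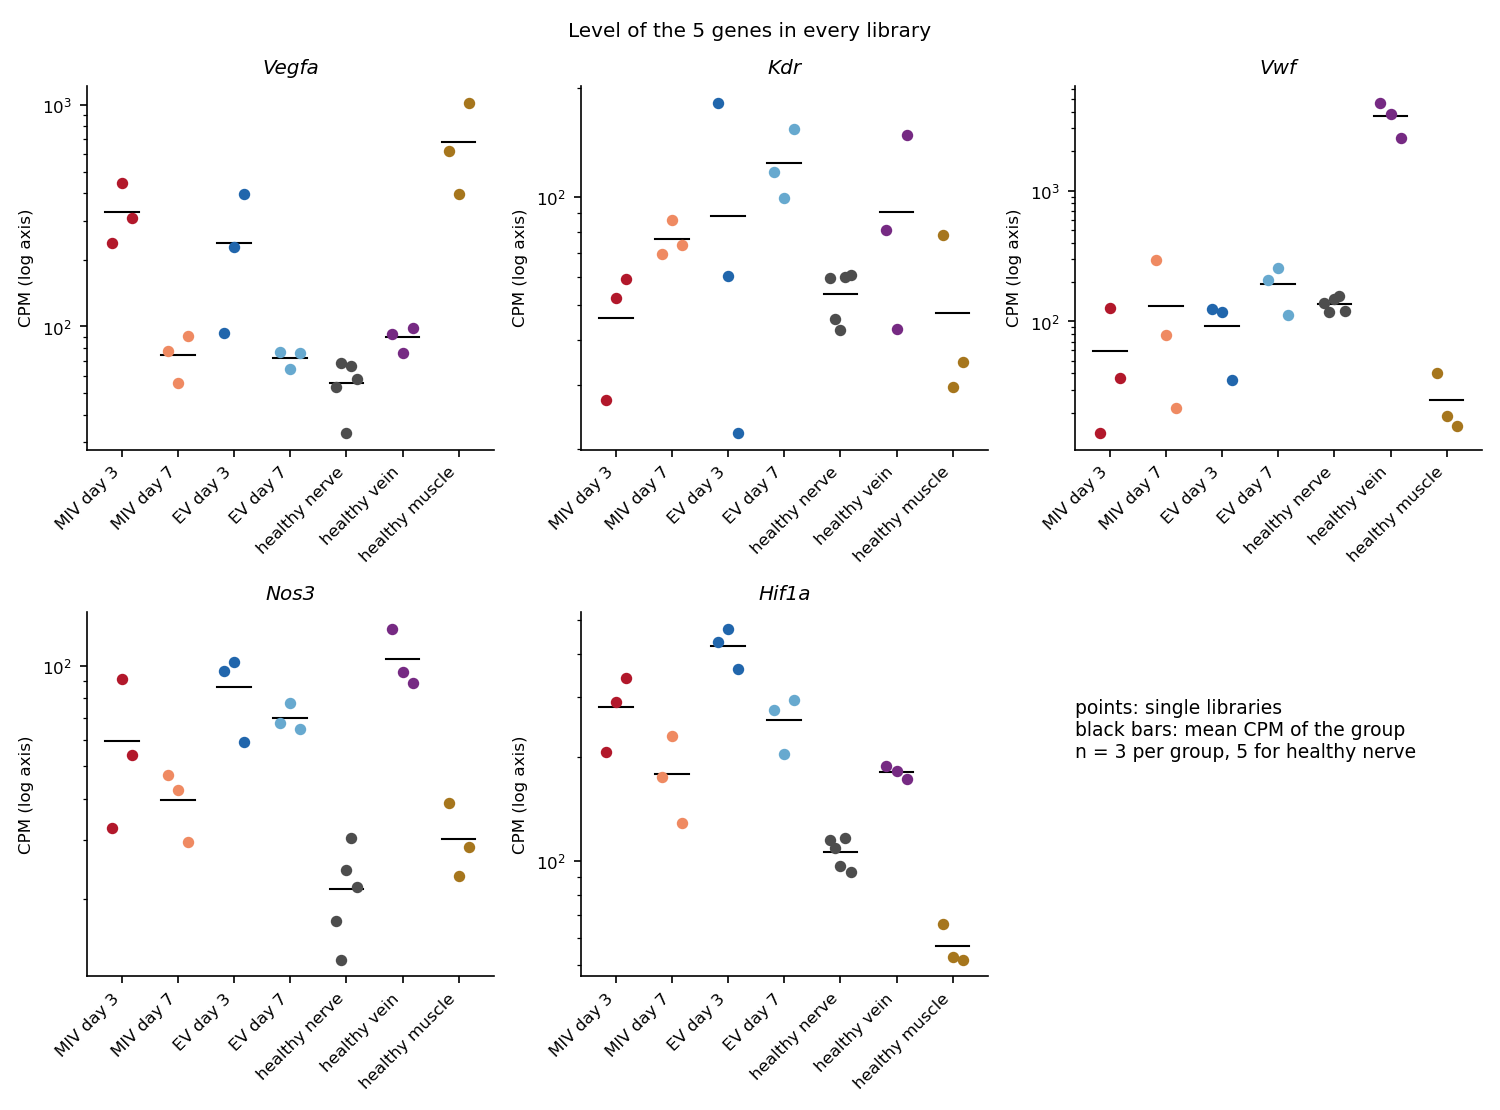
CPM (log axis) of Vegfa, Kdr, Vwf, Nos3 and Hif1a in each of the 23 libraries (points) with the group mean (black bars). Hif1a lay above every healthy nerve library in all 12 repaired nerves, and Vwf was highest in healthy vein, at 2529 to 4724 CPM.

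**Figure D2:**
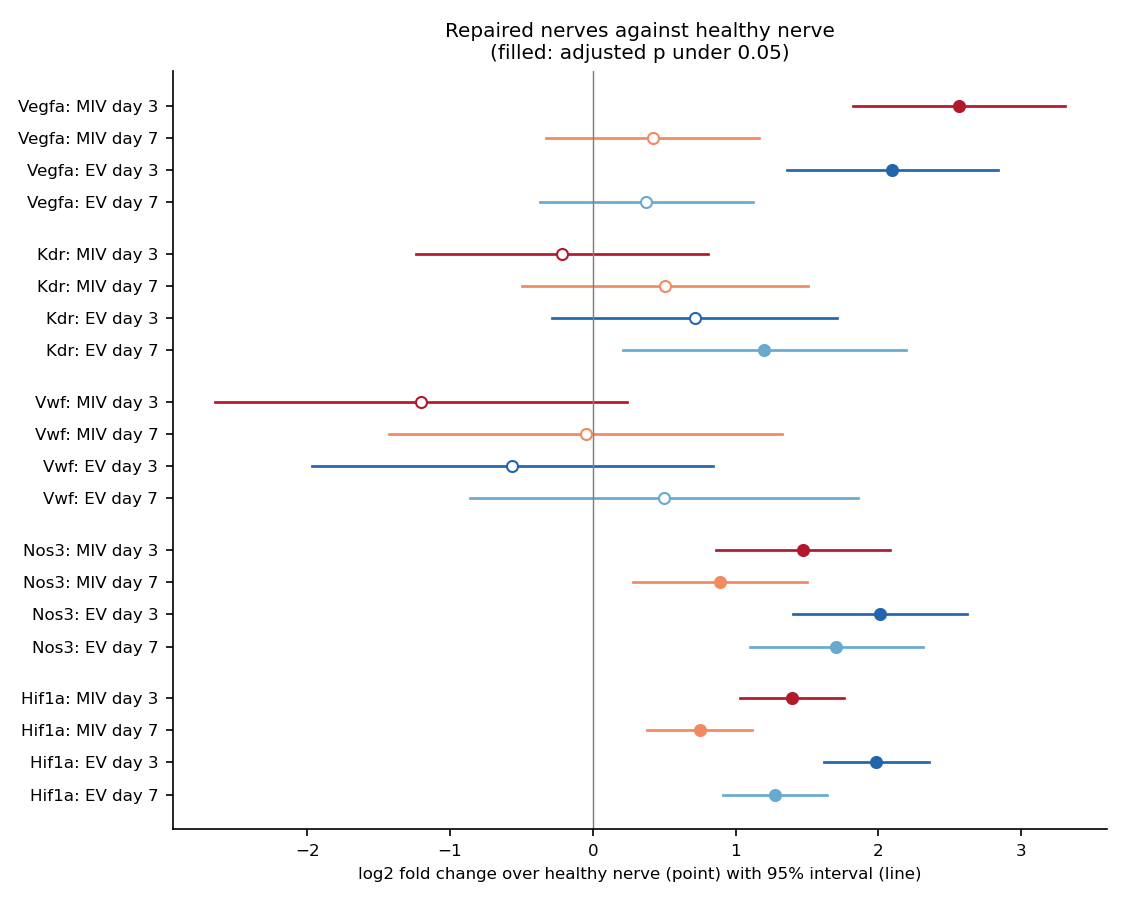
Log2 fold change over healthy nerve (points) with its 95% interval (lines) for each gene and group of repaired nerves. Filled points passed an adjusted p of 0.05: all 4 for Nos3 and Hif1a, both day 3 groups for Vegfa, and EV day 7 for Kdr.

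The start regions of Hif1a, Vegfa and Nos3, the 3 genes that passed against healthy nerve in both series, are given from RefSeq (build GRCr8), each with 250 bases before and 50 after a transcript start. Capitals mark ACGTG or its reverse complement CACGT, a form of the core of a hypoxia response element. Kdr and the other listed start of Vegfa were searched too, and 4 of the 5 genes had an entry.
Hif1a, chr6:98359648-98359947, + strand: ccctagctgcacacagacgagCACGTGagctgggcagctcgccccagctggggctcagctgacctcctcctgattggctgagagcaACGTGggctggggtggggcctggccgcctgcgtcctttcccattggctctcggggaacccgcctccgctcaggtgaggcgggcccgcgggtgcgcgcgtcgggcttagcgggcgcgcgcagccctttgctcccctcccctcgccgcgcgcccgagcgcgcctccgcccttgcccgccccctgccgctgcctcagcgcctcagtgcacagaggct
Vegfa, chr9:22452604-22452903, + strand: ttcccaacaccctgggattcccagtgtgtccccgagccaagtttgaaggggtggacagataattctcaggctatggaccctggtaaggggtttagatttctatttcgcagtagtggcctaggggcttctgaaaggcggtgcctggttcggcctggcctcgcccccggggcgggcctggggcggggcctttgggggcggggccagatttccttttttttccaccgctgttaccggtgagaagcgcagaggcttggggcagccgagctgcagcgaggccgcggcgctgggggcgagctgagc
Nos3, chr4:11706532-11706831, - strand: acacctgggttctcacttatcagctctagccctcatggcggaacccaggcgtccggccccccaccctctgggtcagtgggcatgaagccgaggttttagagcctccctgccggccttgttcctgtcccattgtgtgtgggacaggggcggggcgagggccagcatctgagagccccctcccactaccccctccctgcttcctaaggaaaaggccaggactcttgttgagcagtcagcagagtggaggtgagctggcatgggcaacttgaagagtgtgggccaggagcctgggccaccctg
The Hif1a window held 3 matches on the 2 strands, 2 of them overlapping each other at 229 and 228 bases before the start and 1 at 164 bases before it. The other 4 windows held no ACGTG on either strand. Other forms of the core, and sequence outside these windows, were not searched. Of all 33469 windows of 300 bases in the table, 19.3% held ACGTG on either strand. A second motif, CAGGAAG on either strand, was in none of these windows and in 12.5% of all. A match is a run of letters and not a measured binding site.

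Vegfa, the ligand, was at its highest in repaired nerves at day 3 and was near the healthy nerve level at day 7. In MIV day 3 nerves it stood at 238, 443 and 308 CPM, and in EV day 3 nerves at 93.0, 227 and 396 CPM, against 33.0 to 68.1 CPM (median 57.7) in the 5 healthy nerves. Every day 3 library of both series lay above every healthy nerve library, and the lowest EV day 3 library lay well below the other two of its group. Vegfa was 5.91-fold higher in MIV day 3 than in healthy nerve (log2 fold change 2.56 ± 0.35 SE, edgeR adjusted p = 4.90e-06). In EV day 3 it was 4.28-fold higher (log2 fold change 2.10 ± 0.35 SE, edgeR adjusted p = 4.41e-05).

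At day 7 Vegfa stood at 77.4, 55.3 and 90.8 CPM in MIV and at 76.8, 64.1 and 76.0 CPM in EV. These libraries overlapped those of healthy nerve in both series, and neither group passed (edgeR adjusted p = 0.332 for MIV and 0.407 for EV). The intervals of the fold over healthy nerve were 0.797 to 2.24 for MIV and 0.773 to 2.17 for EV. From day 3 to day 7 Vegfa fell by 2.13 on the log2 scale in MIV (SE 0.45, 4.37-fold, edgeR adjusted p = 0.0125). In EV it fell by 1.70 (SE 0.44, 3.26-fold, edgeR adjusted p = 0.0235). The day 7 libraries of each series lay below all of its day 3 libraries, as for 15.9% of all genes in MIV and 22.9% in EV. The fall in EV no longer passed without EV day 3 replicate 2 or 3 or any 1 EV day 7 library, with adjusted p up to 0.0898 and a log2 fold change of -1.13 without EV day 3 replicate 3.

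Healthy muscle had the highest mean Vegfa by TMM-scaled CPM, at 617, 396 and 1024 CPM, while healthy vein stood at 92.9, 76.2 and 98.9 CPM. With TMM scaling, muscle was 12.2-fold above nerve (log2 fold change 3.61 ± 0.36 SE, edgeR adjusted p = 4.24e-08), and every muscle library lay above every nerve and vein library. Relative to healthy muscle, Vegfa was lower in MIV day 7 nerves (log2 fold change -3.19 ± 0.44 SE, edgeR adjusted p = 3.29e-06), and no library overlapped. MIV day 3 nerves overlapped healthy muscle (log2 fold change -1.04 ± 0.40 SE, edgeR adjusted p = 0.0291). That call was lost without healthy muscle replicate 1 or 3 or MIV day 3 replicate 1 or 3, with adjusted p up to 0.242. Before scaling, the Vegfa counts were 3414, 2427 and 7266 in healthy muscle and 4723, 7751 and 6413 in MIV day 3. Relative to library totals, the MIV day 3 mean was not below that of muscle, so the direction of this difference depends on the scaling. In the order of mean TMM-scaled CPM, healthy muscle came first, followed by MIV day 3, EV day 3, healthy vein, MIV day 7, EV day 7 and healthy nerve. Each group overlapped the next.

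Vegfa was also higher at day 3 than in healthy vein. It was 3.69-fold above vein in MIV day 3 (log2 fold change 1.88 ± 0.41 SE, edgeR adjusted p = 0.000834), without overlap. In EV day 3 it was 2.67-fold above vein by the fit (log2 fold change 1.42 ± 0.41 SE, edgeR adjusted p = 0.00690), where the lowest EV library was within the range of vein. Without EV day 3 replicate 3 that call was lost (log2 fold change 0.84, adjusted p = 0.0860).

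Kdr, the receptor, did not pass against healthy nerve at day 3, and its day 3 levels differed widely between libraries of 1 group. MIV day 3 nerves stood at 27.4, 52.3 and 59.0 CPM and EV day 3 nerves at 182, 60.2 and 22.1 CPM, against 42.7 to 60.6 CPM (median 59.6) in healthy nerve. The highest EV day 3 library had 8.26 times the level of the lowest, and the library highest in Kdr was the one lowest in Vegfa. Neither day 3 group passed against healthy nerve (edgeR adjusted p = 0.717 for MIV and 0.204 for EV). Without EV day 3 replicate 3 the EV day 3 difference passed (log2 fold change 1.17, adjusted p = 0.0280), and without replicate 1 it turned to -0.39.

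At day 7 the Kdr libraries of each series lay closer together. MIV day 7 nerves stood at 69.1, 86.4 and 73.4 CPM and EV day 7 nerves at 117, 99.3 and 154 CPM, every one of them above every healthy nerve library. Kdr was 2.30-fold higher in EV day 7 than in healthy nerve (log2 fold change 1.20 ± 0.47 SE, edgeR adjusted p = 0.0434). In MIV day 7 it was 1.42-fold higher by the fit and did not pass (interval 0.708 to 2.84, edgeR adjusted p = 0.387). The EV call rests close to the threshold: it was lost in 10 of 23 fits that each left out 1 library, among them all 3 EV day 7 and all 5 healthy nerve libraries, healthy vein replicate 1 and MIV day 3 replicate 2. Its adjusted p then reached 0.147, and without the filter on low counts it was 0.0718.

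Among the healthy tissues Kdr did not separate nerve from vein or muscle. Healthy vein stood at 80.7, 43.1 and 148 CPM and healthy muscle at 78.5, 29.7 and 34.8 CPM, ranges that both overlapped healthy nerve (edgeR adjusted p = 0.223 for vein against nerve and 0.767 for muscle against nerve). Muscle against vein also did not pass (log2 fold change -0.93 ± 0.55 SE, edgeR adjusted p = 0.147). It passed without healthy muscle replicate 1 (log2 fold change -1.55, adjusted p = 0.0392). No repaired group passed against healthy vein for Kdr, with edgeR adjusted p = 0.142 in MIV day 3, 0.733 in MIV day 7, 0.963 in EV day 3 and 0.582 in EV day 7. By mean TMM-scaled CPM the order was EV day 7, healthy vein, EV day 3, MIV day 7, healthy nerve, healthy muscle and MIV day 3, where the place of muscle depends on the scaling. Among these neighbours, only MIV day 7 and healthy nerve did not overlap.

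Vwf, the endothelial and platelet glycoprotein, marked the healthy vein. It stood at 4724, 3866 and 2529 CPM there, against 117 to 157 CPM (median 139) in healthy nerve and 40.1, 18.9 and 15.9 CPM in healthy muscle. Vein was 27.2-fold above nerve (log2 fold change 4.77 ± 0.69 SE, edgeR adjusted p = 1.89e-05). Muscle was lower than nerve (log2 fold change -2.45 ± 0.74 SE, edgeR adjusted p = 0.00683) and lower than vein (log2 fold change -7.22 ± 0.97 SE, edgeR adjusted p = 2.25e-06). None of these 3 pairs of groups overlapped, as for 49.5%, 66.8% and 70.1% of all genes in the same order of pairs. By group mean the order was healthy vein, EV day 7, healthy nerve, MIV day 7, EV day 3, MIV day 3 and healthy muscle. Of these neighbours, only healthy vein and EV day 7 did not overlap.

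The repaired nerves stayed far below healthy vein in Vwf, although a muscle-in-vein graft has a wall of vein. MIV day 3 nerves stood at 13.9, 127 and 36.7 CPM, MIV day 7 nerves at 294, 78.6 and 21.9 CPM, EV day 3 nerves at 123, 118 and 35.4 CPM and EV day 7 nerves at 206, 258 and 112 CPM. Against vein, Vwf was 62.6-fold lower in MIV day 3 (edgeR adjusted p = 2.26e-05) and 28.2-fold lower in MIV day 7 (edgeR adjusted p = 0.000205). It was 40.2-fold lower in EV day 3 (edgeR adjusted p = 5.91e-05) and 19.3-fold lower in EV day 7 (edgeR adjusted p = 0.000891). No repaired library overlapped vein, as for 64.4%, 50.2%, 62.3% and 49.5% of all genes in the same order of groups. Leaving out MIV day 3 replicate 2 moved the MIV day 3 log2 fold change to -7.19, against -5.97 with it, and leaving out MIV day 7 replicate 1 moved the MIV day 7 value to -6.21, against -4.82.

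Within a group of repaired nerves, Vwf varied more than any of the other 4 genes in MIV. The highest library had 9.12 times the level of the lowest in MIV day 3 and 13.4 times in MIV day 7, against 3.49 times in EV day 3, 2.29 times in EV day 7 and 1.34 times in healthy nerve. MIV day 7 replicate 3, the lowest of its group in Vwf, held 37.4% of its counts in muscle-enriched and 5.07% in vein-enriched genes. Replicate 1, the highest in Vwf, held 24.8% and 7.86%, and replicate 2, between them in Vwf, held 17.9% and 6.02%. Vwf is itself among the vein-enriched genes. The part of these shares in the Vwf level was not tested. Against healthy nerve, no repaired group passed, with edgeR adjusted p = 0.138 in MIV day 3, 0.954 in MIV day 7, 0.484 in EV day 3 and 0.556 in EV day 7. Without MIV day 3 replicate 2, which held most of the Vwf of its group, MIV day 3 passed as lower than healthy nerve (log2 fold change -2.43, adjusted p = 0.0129). Against healthy muscle, MIV day 7 passed as higher (log2 fold change 2.40 ± 0.78 SE, edgeR adjusted p = 0.0115), though libraries overlapped. Without MIV day 7 replicate 1 it did not (log2 fold change 1.02, adjusted p = 0.222).

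Nos3, the endothelial nitric oxide synthase, was higher than in healthy nerve in all 4 groups of repaired nerves. MIV day 3 nerves stood at 32.7, 91.6 and 54.3 CPM, and EV day 3 nerves at 96.9, 103 and 59.3 CPM, against 13.1 to 30.5 CPM (median 21.8) in healthy nerve. MIV day 7 nerves stood at 47.0, 42.4 and 29.7 CPM and EV day 7 nerves at 67.5, 77.2 and 64.9 CPM. All repaired libraries but 1 (MIV day 7 replicate 3) lay above every healthy nerve library. Nos3 was 2.78-fold higher in MIV day 3 (log2 fold change 1.47 ± 0.29 SE, edgeR adjusted p = 0.000227) and 1.86-fold higher in MIV day 7 (log2 fold change 0.89 ± 0.29 SE, edgeR adjusted p = 0.0148). It was 4.03-fold higher in EV day 3 (log2 fold change 2.01 ± 0.29 SE, edgeR adjusted p = 7.93e-06) and 3.26-fold higher in EV day 7 (log2 fold change 1.71 ± 0.29 SE, edgeR adjusted p = 8.67e-05). Vein-enriched genes, of which Nos3 is 1, took 5.22% to 6.38% of the counts in MIV day 3, 5.07% to 7.86% in MIV day 7, 5.76% to 7.36% in EV day 3 and 9.21% to 9.79% in EV day 7, against 3.38% to 3.99% in healthy nerve. Genes enriched in healthy nerve by the same rule (1485 genes, none of the 5 among them) took 6.17% to 6.60% in MIV day 3, 4.19% to 5.90% in MIV day 7, 5.57% to 5.87% in EV day 3 and 5.73% to 5.92% in EV day 7, against 25.0% to 28.7% in healthy nerve. The part of these shares in the differences of Nos3 and of the other genes from healthy nerve was not tested. The MIV day 7 call for Nos3 was lost without MIV day 7 replicate 1 (log2 fold change 0.75, adjusted p = 0.0690). In the reference table Nos3 overlaps 1 other gene, Atg9b. The libraries do not mark strand, so reads of the 2 genes cannot be told apart where they overlap.

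Healthy vein held the highest mean Nos3, at 129, 96.0 and 88.9 CPM, 4.89-fold above nerve (log2 fold change 2.29 ± 0.29 SE, edgeR adjusted p = 3.97e-06). Healthy muscle stood at 38.9, 23.5 and 28.7 CPM, lower than vein (log2 fold change -1.79 ± 0.34 SE, edgeR adjusted p = 0.000144) and overlapping nerve (edgeR adjusted p = 0.146). When the scaling left out all muscle-enriched genes, Nos3 passed as higher in muscle than in nerve (log2 fold change 0.85, adjusted p = 0.0162). That scaling moved the all-gene median for muscle over nerve to 0.15 on the log2 scale, against -0.19 with TMM.

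Against healthy vein, EV nerves did not pass for Nos3 at day 3 (fold interval 0.513 to 1.33, edgeR adjusted p = 0.500) or day 7 (0.414 to 1.08, edgeR adjusted p = 0.201), although every EV day 7 library lay below every vein library. MIV nerves passed as lower at day 7 (log2 fold change -1.40 ± 0.34 SE, edgeR adjusted p = 0.00234), without overlap, and at day 3 (log2 fold change -0.82 ± 0.33 SE, edgeR adjusted p = 0.0441), where libraries overlapped. The day 3 call was lost in 9 of 23 fits that each left out 1 library: MIV day 3 replicate 1 or 3, healthy vein replicate 1 or 2, any EV day 7 library, healthy muscle replicate 3 or healthy nerve replicate 5. Its adjusted p then reached 0.202. Against healthy muscle, Nos3 was higher in MIV day 3 (log2 fold change 0.97 ± 0.34 SE, edgeR adjusted p = 0.0164), a call lost without MIV day 3 replicate 2 (adjusted p = 0.172) or healthy muscle replicate 2 (adjusted p = 0.0626). In MIV day 7 it did not pass against muscle (edgeR adjusted p = 0.317). By mean TMM-scaled CPM the order was healthy vein, EV day 3, EV day 7, MIV day 3, MIV day 7, healthy muscle and healthy nerve. Each group overlapped the next, and the place of muscle above nerve depends on the scaling.

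Hif1a, the regulator, was higher than in healthy nerve in all 4 groups of repaired nerves, with no overlap. MIV day 3 nerves stood at 208, 290 and 340 CPM, EV day 3 nerves at 431, 471 and 361 CPM, MIV day 7 nerves at 175, 231 and 129 CPM and EV day 7 nerves at 274, 205 and 293 CPM. Healthy nerve stood at 93.2 to 117 CPM (median 109), and all 12 repaired libraries lay above all 5 of healthy nerve. Hif1a was 2.63-fold higher in MIV day 3 (log2 fold change 1.40 ± 0.17 SE, edgeR adjusted p = 1.30e-06) and 1.68-fold higher in MIV day 7 (log2 fold change 0.75 ± 0.18 SE, edgeR adjusted p = 0.00134). It was 3.96-fold higher in EV day 3 (log2 fold change 1.99 ± 0.17 SE, edgeR adjusted p = 1.48e-08) and 2.42-fold higher in EV day 7 (log2 fold change 1.28 ± 0.17 SE, edgeR adjusted p = 7.39e-06). These 4 calls held in every fit that left out 1 library.

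Healthy vein stood at 189, 182 and 174 CPM in Hif1a, 1.71-fold above nerve (log2 fold change 0.77 ± 0.18 SE, edgeR adjusted p = 0.00153), and healthy muscle at 65.8, 52.9 and 51.8 CPM, below nerve (log2 fold change -0.90 ± 0.19 SE, edgeR adjusted p = 0.000260). The 3 healthy tissues did not overlap, as for 49.5% of all genes between vein and nerve, 66.8% between muscle and nerve and 70.1% between muscle and vein. Against vein, Hif1a was higher in EV day 3 (log2 fold change 1.21 ± 0.20 SE, edgeR adjusted p = 5.84e-05) and in MIV day 3 (log2 fold change 0.62 ± 0.20 SE, edgeR adjusted p = 0.0130). The MIV day 3 call was lost without MIV day 3 replicate 3 (adjusted p = 0.0838). At day 7 neither series passed against vein, with edgeR adjusted p = 0.933 in MIV and 0.0666 in EV. The EV day 7 difference, 0.50 ± 0.20 (SE) on the log2 scale, passed without EV day 7 replicate 2 (adjusted p = 0.0392), MIV day 3 replicate 1 (0.0466) or MIV day 7 replicate 2 or 3 (0.0364 and 0.0385). Against healthy muscle, Hif1a was higher in MIV day 3 (log2 fold change 2.30 ± 0.21 SE, edgeR adjusted p = 1.25e-08) and in MIV day 7 (log2 fold change 1.65 ± 0.21 SE, edgeR adjusted p = 9.76e-07). The reference table lists 1 gene, LOC120103553, that overlaps Hif1a, and as for Nos3, reads cannot be told apart where the 2 genes overlap.

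The order of group means for Hif1a was EV day 3, MIV day 3, EV day 7, healthy vein, MIV day 7, healthy nerve and healthy muscle. Of these neighbours, MIV day 3 overlapped EV day 7 and healthy vein overlapped MIV day 7, and the other pairs did not overlap. From day 3 to day 7 the Hif1a change did not pass in MIV (log2 fold change -0.64 ± 0.24 SE, edgeR adjusted p = 0.0967) or in EV (-0.70 ± 0.24 SE, edgeR adjusted p = 0.0683). Without MIV day 7 replicate 2 both passed (adjusted p = 0.0375 in MIV and 0.0415 in EV), and EV passed without MIV day 7 replicate 3 (adjusted p = 0.0461). The 6 EV libraries showed no overlap between the days, whereas the MIV libraries overlapped. Over all 15036 genes, 45.8% had no overlap between the days in EV and 31.3% in MIV.

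Over the 5 genes, the change from day 3 to day 7 passed for Vegfa alone in each series, as lower at day 7, where 8.09% of all 15036 genes passed as lower in MIV and 10.2% in EV. Kdr, Vwf and Nos3 did not pass in either series. In Kdr every MIV day 7 library lay above every MIV day 3 library, as for 15.4% of all genes. Kdr had a log2 fold change of 0.73 ± 0.59 in MIV and 0.49 ± 0.59 in EV, Vwf of 1.17 ± 0.95 and 1.07 ± 0.95, and Nos3 of -0.57 ± 0.34 and -0.29 ± 0.34 (SE). Their edgeR adjusted p ran from 0.274 to 0.586 over the 2 series. Without EV day 3 replicate 1, the library with the highest Kdr, Kdr passed as higher at day 7 in EV (log2 fold change 1.61, adjusted p = 0.0349). Without MIV day 7 replicate 1, the Vwf change in MIV turned to -0.27. The difference between the series in the change over time passed for none of the 5 genes (edgeR adjusted p from 0.930 to 0.995, none under an unadjusted p of 0.05), as for none of all genes (0%, with 5.29% under an unadjusted p of 0.05). Fitted with DESeq2, it passed for none of the 5 and for 17 genes in all.

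**Figure D3:**
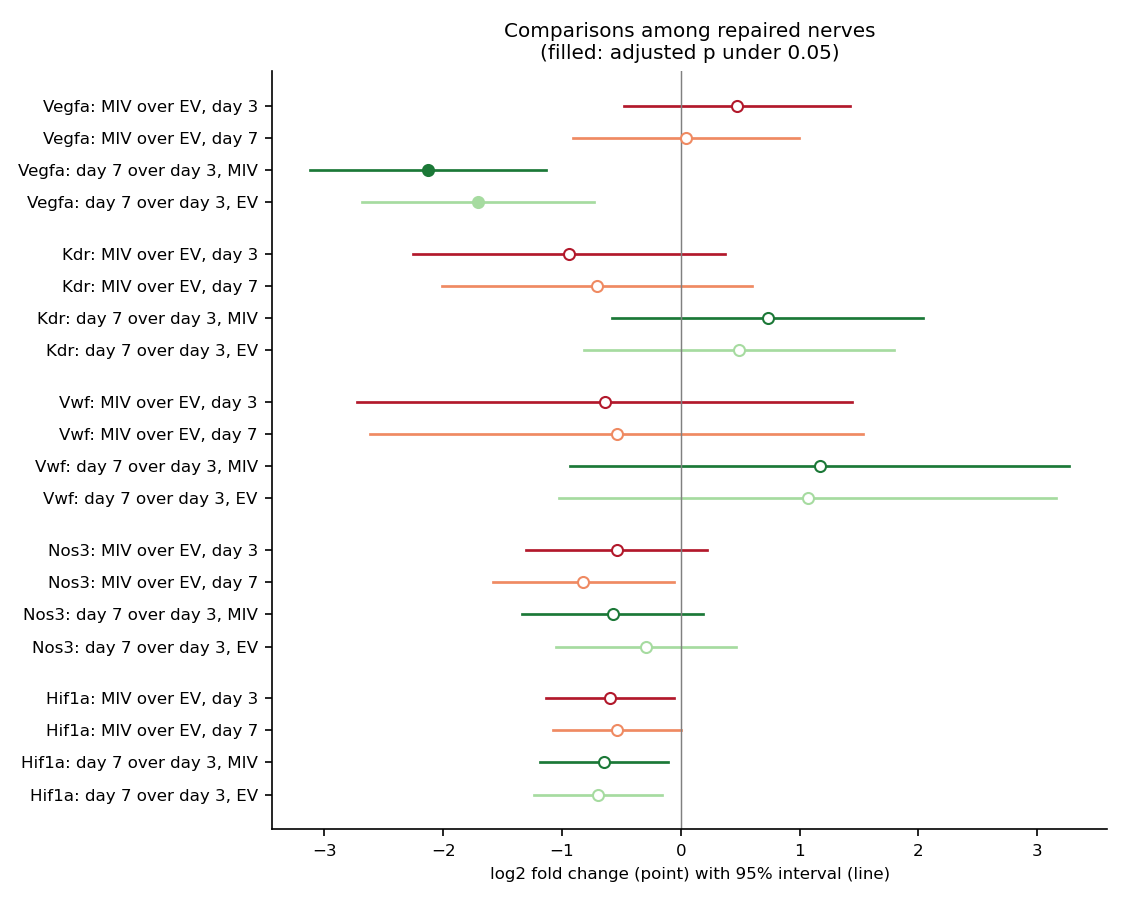
Log2 fold change (points) with its 95% interval (lines) for MIV over EV at each day and for day 7 over day 3 in each series. Filled points passed an adjusted p of 0.05, which Vegfa did for day 7 over day 3 in both series, and no gene did for MIV over EV.

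The MIV and EV nerves were compared to address the series' question on the part of muscle fibres in early regeneration within the graft. None of the 5 genes passed at either day, as none of all 15036 genes did (0%). DESeq2 also called none of the 5, and called 251 genes in all at day 3 and 868 at day 7. At an unadjusted p under 0.05 there was 1 of the 5 at day 3 (Hif1a), where 5.15% of all genes were, and 2 of the 5 at day 7 (Nos3 and Hif1a), where 16.7% were. The median log2 fold change of the 5 genes was -0.59 at day 3 and -0.54 at day 7, against -0.02 and 0.01 over all genes.

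Hif1a in MIV day 3 lay below EV day 3 in every library (log2 fold change -0.59 ± 0.24 SE, edgeR unadjusted p = 0.0336, adjusted p = 0.886). At day 7 the Hif1a libraries of the 2 series overlapped (log2 fold change -0.54 ± 0.24 SE, edgeR unadjusted p = 0.0497, adjusted p = 0.298). Nos3 in MIV day 7 lay below EV day 7 in every library (log2 fold change -0.82 ± 0.35 SE, edgeR unadjusted p = 0.0381, adjusted p = 0.271), and at day 3 it overlapped (-0.54 ± 0.34 SE, edgeR adjusted p = 1). Kdr in MIV day 7 also lay below EV day 7 in every library (log2 fold change -0.70 ± 0.59 SE, edgeR adjusted p = 0.544), and at day 3 it overlapped. Libraries without overlap were found for 1 of the 5 genes at day 3, where 11.3% of all genes had none, and for 2 of the 5 at day 7, where 21% had none. The muscle-enriched share was higher and the vein-enriched share lower in MIV day 7 than in EV day 7, as given above, and their part in these differences was not tested.

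Vegfa and Vwf overlapped between the series at both days. The interval of the MIV over EV fold was 0.717 to 2.68 at day 3 and 0.534 to 1.998 at day 7 for Vegfa, and 0.152 to 2.71 and 0.163 to 2.89 for Vwf, so the data do not show that the series were alike. For Kdr it was 0.209 to 1.29 and 0.249 to 1.52. The Kdr value at day 3 (log2 fold change -0.94) turned to 0.17 without EV day 3 replicate 1. Over both days together, Hif1a had a log2 fold change of -0.57 ± 0.17 SE (edgeR unadjusted p = 0.00751, adjusted p = 0.161) and Nos3 of -0.68 ± 0.24 SE (edgeR unadjusted p = 0.0183, adjusted p = 0.233). Both were among the genes at an unadjusted p under 0.05, 2 of the 5 against 15.3% of all genes. None of the 5 passed after adjustment, where 1.54% of all genes did. DESeq2 gave an adjusted p of 0.0533 for Hif1a in that comparison, and edgeR fitted over all 23 libraries gave 0.0217, past the threshold.

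Ratios of 2 genes within 1 library do not depend on the scaling between libraries, and they were compared as ranges. They are ratios of counts, not of levels, since gene length is not divided out. The Nos3 to Vwf ratio ran from 0.721 to 2.34 in MIV day 3, from 0.785 to 1.68 in EV day 3 and from 0.299 to 0.577 in EV day 7, against 0.112 to 0.194 in healthy nerve and 0.0248 to 0.0352 in healthy vein. All of these repaired libraries lay above healthy nerve. In MIV day 7 it ran from 0.160 to 1.36, which overlapped healthy nerve through replicate 1. Healthy muscle ran from 0.968 to 1.81. Every repaired library thus had more Nos3 relative to Vwf than any healthy vein library.

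The Kdr to Vwf ratio ran from 0.412 to 1.96 in MIV day 3, 0.235 to 3.35 in MIV day 7, 0.511 to 1.48 in EV day 3 and 0.385 to 1.37 in EV day 7, against 0.289 to 0.501 in healthy nerve. All but EV day 3 overlapped healthy nerve. Healthy vein had the lowest ratios, at 0.0111 to 0.0585. The ligand to receptor ratio, Vegfa to Kdr, was 5.22 to 8.68 in MIV day 3, against 0.771 to 1.48 in healthy nerve, without overlap. In EV day 3 it ran from 0.510 to 17.95, the widest range of any group on a log scale, with replicate 1 below every healthy nerve library and the other two above. At day 7 it was 0.641 to 1.24 in MIV and 0.493 to 0.655 in EV, where every EV library lay below every healthy nerve library. Healthy muscle had the highest group mean, with ratios of 7.87 to 29.4.

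**Figure D4:**
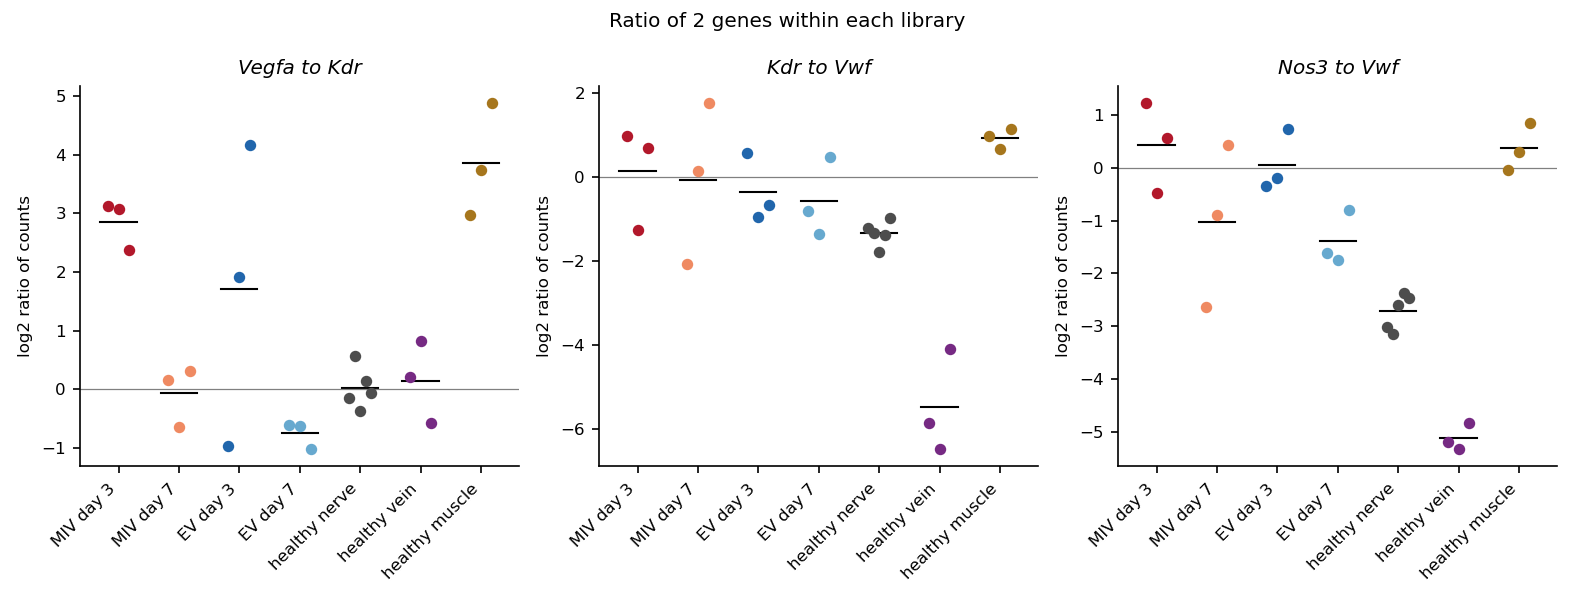
Log2 ratio of counts within each library for Vegfa to Kdr, Kdr to Vwf and Nos3 to Vwf (points) with the group mean (black bars). In EV day 3 the Vegfa to Kdr ratio spans -0.97 to 4.17, and for Nos3 to Vwf all day 3 libraries lie above healthy nerve and all healthy vein libraries lie lowest, at -5.33 to -4.83.

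Likeness between genes was measured as Spearman's rho of log2 CPM over the 23 libraries, as a description, since libraries of a group share their tissue. Of the 5 genes, Nos3 and Hif1a were the most alike, with a rho of 0.73. Hif1a ranked 332 among the 15953 other genes by likeness to Nos3, and Nos3 ranked 1739 by likeness to Hif1a. Over the 12 repaired nerves alone their rho was 0.67. Among the 3 genes of endothelial cells, likeness over the 23 libraries was lower, with a rho of 0.46 for Vwf and Nos3, 0.44 for Kdr and Nos3 and 0.43 for Kdr and Vwf. Over the 12 repaired nerves these were 0.57 for Vwf and Nos3, 0.27 for Kdr and Nos3 and 0.44 for Kdr and Vwf. Vegfa and Kdr had a rho of -0.27 over the 23 libraries and of -0.75 over the 12 repaired nerves, the largest in size of any pair there. Those 12 libraries share their day and series in groups of 3. The genes most like each of the 5 carry no symbol here and are not named.

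**Figure D5:**
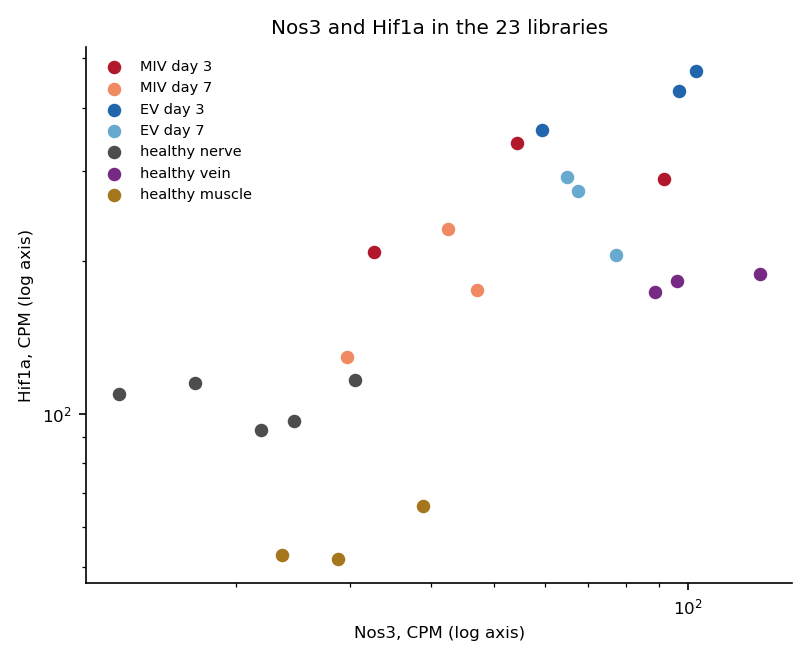
CPM of Nos3 against Hif1a (both log axes), 1 point per library, coloured by group. Healthy nerve lies at 13.1 to 30.5 CPM of Nos3 and 93.2 to 117 CPM of Hif1a. Repaired nerves and healthy vein lie above it in both, except MIV day 7 replicate 3, within its range at 29.7 CPM of Nos3. Healthy muscle, at 23.5 to 38.9 CPM of Nos3, overlaps healthy nerve and some MIV libraries in that gene.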

How the data were processed

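The deposited file is a table of raw counts, with rows of Ensembl rat gene identifiers and a column for each of 23 libraries. Per the labels' protocols, TRIzol RNA (350 ng) was poly-T selected and the libraries were non-directional. CASAVA and HISAT2 appear in the submitters' processing notes without versions, and for the counting tool, genome build and annotation no source used here gives a name. Libraries were grouped by title, and 0 columns were left over.

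The fit used R 4.3.3 and edgeR 4.0.16: filterByExpr (minimum count 10, minimum total 15), TMM, a group-means design and the robust quasi-likelihood test, with p-values adjusted over all genes tested. Comparisons among repaired nerves used 12 libraries (biological coefficient of variation 37.1%), and all others used 23 (31.4%). A gene counted as tissue-enriched where it exceeded each other healthy tissue by more than 1 on the log2 scale with an adjusted p below 0.05. Log2 CPM for likeness had a prior count of 2. DESeq2 1.42.0, other scalings, no filter, a replicate block, all 23 libraries for every comparison and leaving out each library were the alternatives. The fit was also run on simulated counts, where each gene kept the same mean in all groups apart from a set of changed genes. That setting holds no differences between tissues, so it does not test the fits against healthy tissues.

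The genes, the lists and the enrichment rule were chosen with earlier results of these data known, and all 5 genes are named throughout. The reference gene table (GRCr8) matched 0 identifiers, so the 10 gene lists fixed by symbol were not analysed here. Same-numbered MIV and EV libraries at day 7 deviated together across genes (correlations of 0.167 to 0.209, each over 0.1). This pairing comes from the data and not from the labels. The main fits did not use the match, and a replicate block was fitted as an alternative. No other pair of groups checked had correlations over 0.1 in every number.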

Additional observations from a re-analysis of the deposited data

How the results depend on the processing

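The count of the 5 genes that passed stayed within 1.5 times in 99 of 105 combinations of a comparison and an alternative. For EV day 7 against EV day 3 it was 2 in place of 1 with DESeq2, with scaling from genes that are not muscle-enriched and with all 23 libraries in the fit, since Hif1a then passed (adjusted p = 0.0414, 0.0438 and 0.0119). With all 23 libraries it was also 2 for MIV day 7 against MIV day 3 (Hif1a, adjusted p = 0.0230) and 1 in place of 0 for MIV against EV over both days (Hif1a). With the muscle-free scaling it was 2 in place of 1 for EV day 7 against healthy vein (Hif1a, adjusted p = 0.0435). Leaving out 1 library, the counts ran from 0 to 2 for EV day 7 against EV day 3, 1 to 2 for MIV day 7 against MIV day 3, 1 to 2 for MIV day 7 against healthy nerve, 2 to 4 for MIV day 3 against healthy vein and 1 to 2 for EV day 7 against healthy vein. Within 1.5 times, they ran from 3 to 4 for both day 3 groups against healthy nerve and 4 to 5 for muscle against vein. They ran from 2 to 3 for EV day 7 against nerve, EV day 3 against vein and both MIV days against muscle. Elsewhere the count did not change.

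Calls lost under an alternative, beside those in the report, were Nos3 in MIV day 3 against vein (adjusted p = 0.0624 without a filter, 0.0560 with the muscle-free scaling, 0.0558 with a replicate block), Vegfa in MIV day 3 against muscle (0.0604 without a filter, 0.0503 with the block), Nos3 in MIV day 3 against muscle (0.0695 with the muscle-free scaling) and Kdr in EV day 7 against nerve (0.0804 with the block).

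No call was reversed. Differences that had not passed changed sign: Kdr in MIV day 3 against muscle (0.043 without a filter, 0.091 with the replicate block), Vwf in MIV day 7 against nerve (0.062, muscle-free scaling), Hif1a in MIV day 7 against vein (0.053, muscle-free scaling), Kdr in muscle against nerve (0.17, muscle-free scaling), and the difference between the series in the change over time for Vwf (-0.41 with the block, -0.34 with the block by day) and Kdr (-0.22 with the block by day). The cause was not tested. With a replicate block, 0 of the 5 genes passed between MIV and EV at either day, over all libraries or by day. Blocked by day, at day 7 Nos3 had a log2 fold change of -0.84 (adjusted p = 0.297) and Hif1a of -0.56 (adjusted p = 0.412).

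The sign changed in 31 combinations of a difference and a left-out library, and in 1779 neither the sign nor the call changed. None of the differences that changed sign had passed. Over the left-out libraries they ran from -1.42 to 0.17 (Kdr, MIV against EV at day 3), -0.11 to 0.24 (Vegfa, MIV against EV at day 7), -0.27 to 2.40 (Vwf, MIV day 7 against day 3), -0.88 to 0.75, -1.34 to 1.34, -0.58 to 0.18 and -0.14 to 0.24 (Kdr, Vwf, Nos3 and Hif1a, difference between the series over time), -0.43 to 0.050 (Kdr, MIV day 3 against nerve), -1.44 to 0.45 (Vwf, MIV day 7 against nerve), -0.39 to 1.17 (Kdr, EV day 3 against nerve), -0.59 to 0.30 (Kdr) and -0.25 to 0.16 (Hif1a, MIV day 7 against vein), -1.14 to 0.51 (Kdr, EV day 3 against vein), -0.25 to 0.57 (Kdr, MIV day 3 against muscle) and -0.79 to 0.034 (Kdr, muscle against nerve).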
